A study of Drosophila melanogaster with 9 samples.

Results

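Peaks of the histone mark H3K27me3 are described here at genes of the Drosophila melanogaster eye and antenna programme: the homeobox genes so, Optix and Six4 of the sine oculis family, the So partner eya, and the distal antenna pair dan and danr. They are 6 of the 13922 protein-coding genes on X, 2L, 2R, 3L, 3R and 4, chosen by name. Each was read over its gene body in the Release 6 annotation, which has the coordinates of dm6, and over a window of the body with 20 kb on each side. The covered percent is the percent of those bases that lie under a deposited peak.

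The libraries came from chromatin immunoprecipitation of whole larvae of the third instar, raised at 25 °C. Each of 3 groups had 2 libraries, each with a separate peak list. The groups were wild-type males, wild-type females and males of the genotype roX1[ex6]roX2[9-4], which lack the noncoding RNAs roX1 and roX2 and are called knockout males below. The study concerns a role of these RNAs in repression on autosomes, and the 6 genes are all autosomal. Since a whole larva mixes many tissues, a change in the share of cells that carry the mark and a change in the mark per cell cannot be told apart.

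H3K27me3 is laid down by Polycomb repressive complex PRC2 and marks developmental genes that are kept silent in most cells of the animal. The eye is specified by a small network in which So, a homeodomain protein, binds DNA together with Eya, a coactivator that is also a protein phosphatase, while Optix acts in parallel in the eye and Six4 acts mainly in mesoderm, muscle and gonad. Dan and Danr are nuclear proteins with a Pipsqueak-type DNA-binding domain that act in the antenna and in the eye. The roX RNAs are components of the male-specific MSL complex, which raises transcription of the single male X.

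The lists held 4784 to 5406 peaks in wild-type males, 6189 and 6327 in the knockout and 8896 and 10619 in wild-type females, and covered 11.4 to 17.8 Mb of the 6 arms. The 2 knockout lists were the shortest, at 13.0 and 11.4 Mb. Peaks on Y sequence covered 236 to 301 kb in wild-type males, 166 and 167 kb in the knockout and 25.2 and 30.4 kb in females. The Polycomb targets Ubx, abd-A and Abd-B had at least 50% of the body covered in all 6 libraries, and 6 housekeeping genes in none. That check does not mean that the cover of these targets was equal between groups, and their window differences are given with the network genes below. The lists hold no read counts, so their depth is unknown, and where no peak is listed the mark was not detectable at that depth. Nothing in the labels ties replicates to separate animals, and their spread may be technical.

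so (sine oculis), whose loss removes the eye, lay under 1 wide peak in every library. The gene spans 7419350 to 7434872 on 2R, 15.5 kb. The peak was 26.0 and 25.9 kb wide in wild-type males, 24.9 and 25.6 kb in the knockout and 25.7 kb in both female libraries. It began 9.66 to 10.5 kb before the gene's lowest coordinate and stopped 0.051 to 0.235 kb short of its highest, so that its edges moved by at most 0.824 and 0.184 kb between libraries. The edges of the block therefore differed little between libraries. The authors' own fold over background for this peak was 3.90 and 4.09 in wild-type males, 2.38 and 2.36 in the knockout and 2.43 and 2.47 in females. These folds belong to separate lists and were not tested between them, and a gene that is almost fully covered cannot show a change in the height of the signal by its covered percent.

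The body of so was covered at 99.7 and 99.5% in wild-type males, 98.5 and 99.3% in the knockout and 99.1 and 99.0% in females. Its window was covered at 48.5% in each library of wild-type males, 46.6 and 47.2% in the knockout and 49.9% in both female libraries. Window values of the 3 groups did not overlap, with knockout males lowest and females highest, but the means lay within 3 percentage points of each other. Here and below, groups of 2 libraries without overlap give an exact permutation p of 0.333. The share of all genes without overlap was not counted. Females had further small peaks in the outer flanks, with 4 and 5 peaks in the window against 2 in each male library. Of the 25.3 kb covered in all 6 libraries and the 30.0 kb covered in any, the shared part was 84.3%.

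Optix, a relative of so that is also needed for the eye, carried the widest block of the 6. It lies 596 kb from so on the same arm, at 8031283 to 8042529 on 2R, and its body was covered at 100% in every library. Its window was covered at 91.6 and 90.2% in wild-type males, 88.7 and 77.2% in the knockout and 80.9 and 85.2% in females. Both wild-type male values lay above all the others, while the knockout and female values overlapped and the 2 knockout libraries differed by 11.5 points.

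The widest Optix peak was 42.6 and 41.8 kb in wild-type males, 42.8 and 33.4 kb in the knockout and 32.9 kb in both female libraries. At the low-coordinate end it began 16.3 kb before the gene in the first knockout library and 13.5 to 13.6 kb before it in the other 5. At the high-coordinate end the peak ran 15.2 to 17.7 kb past the gene in wild-type males and in the first knockout library, 8.63 kb in the second knockout library and 8.10 kb in both female libraries. Beyond that point females and the second knockout library had separate smaller peaks, so the flank was broken up and still partly covered. The far flank was covered at 86.7% ± 2.74 (SD, n = 2) in wild-type males, 69.4% ± 9.86 in the knockout and 72.9% ± 7.59 in females.

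eya, whose protein binds So, lay under a block of similar size to that of so. The gene spans 6527447 to 6546976 on 2L, 19.5 kb, and its body was covered at 97.4 and 99.0% in wild-type males, 97.1 and 90.5% in the knockout and 97.2% in both female libraries. The peak was 29.0 and 29.3 kb wide in wild-type males, 28.9 and 25.2 kb in the knockout and 28.7 and 28.9 kb in females. One library stood apart: in the second knockout library the block began 3.64 kb inside the gene, against 0.193 to 0.571 kb in the other 5, with a separate peak in the stretch that was left.

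At its other end the eya block ran 9.34 to 9.98 kb past the gene in all libraries. The window was covered at 49.7 and 49.2% in wild-type males, 50.8 and 45.4% in the knockout and 53.1 and 50.6% in females. The knockout values lay on both sides of those of wild-type males and overlapped with those of females. The authors' fold for the eya block was 3.001 and 2.971 in wild-type males, 2.08 and 2.12 in the knockout and 2.17 and 2.20 in females. The blocks at so, Optix and eya were wider than 97.4 to 99.6% of the peaks of their own lists.

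**Figure D1:**
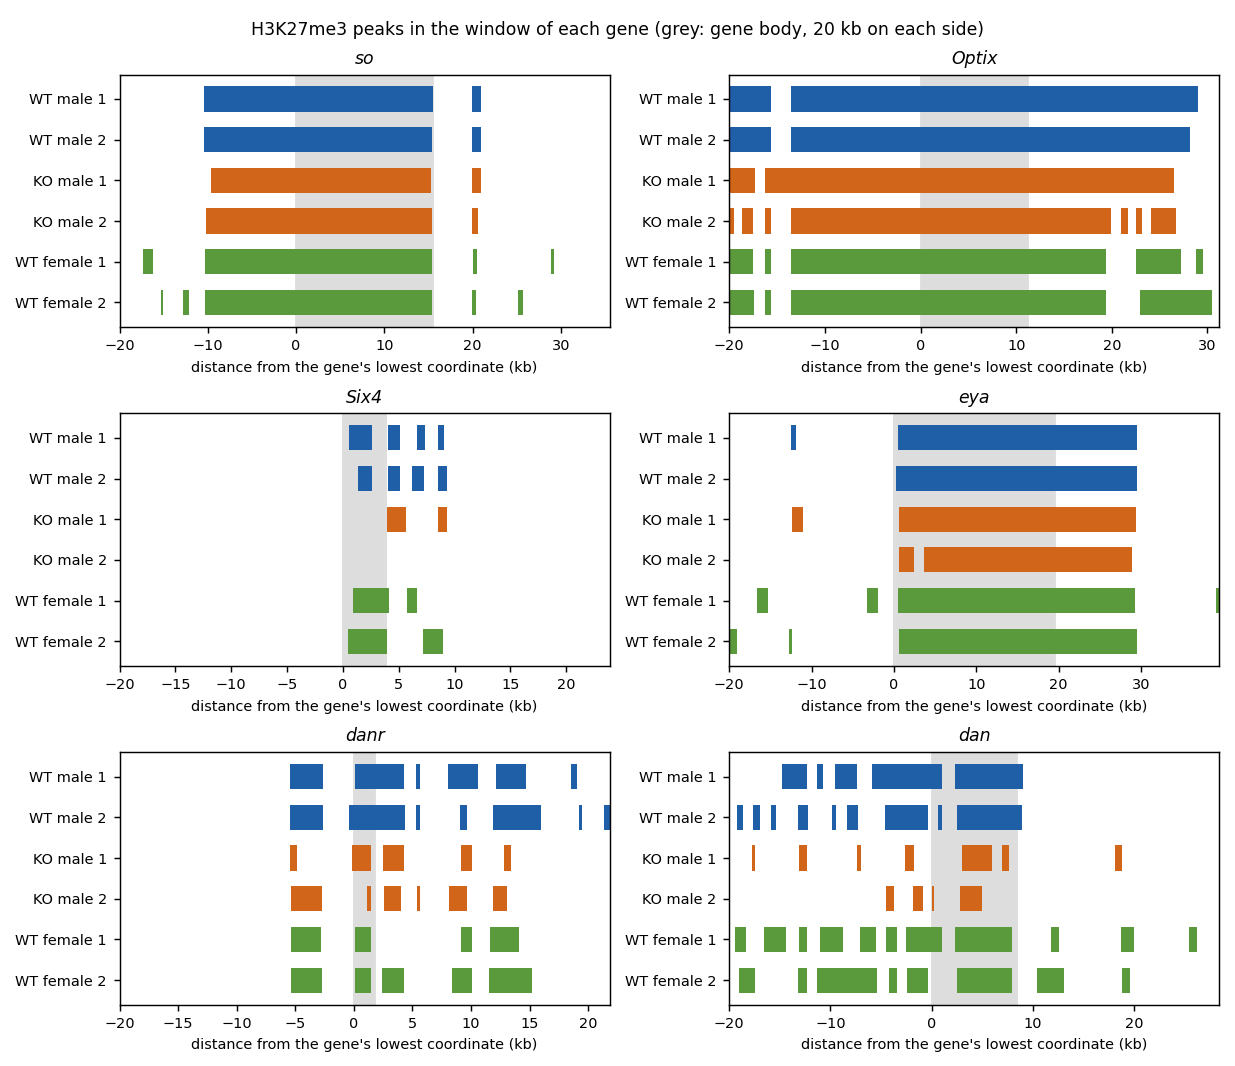
Peaks of each library (bars) in the window of each gene, by distance in kb from the gene's lowest coordinate, with the gene body in grey and wild-type males in blue, knockout males in orange and females in green. so, Optix and eya lie under 1 wide block in all 6 libraries, apart from a gap at the eya start in knockout library 2. Six4, danr and dan carry short separate peaks. By group mean the widest of these is shortest in knockout males, with overlap with wild-type males at Six4 and with females at danr.

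Six4 differed from its relatives so and Optix in having no block. It is short, 3.89 kb at 20788886 to 20792777 on 3L. Its widest peak was 2.07 and 1.27 kb in wild-type males, 1.67 kb in the first knockout library and 3.26 and 3.47 kb in females, with no peak at all in the window of the second knockout library. The body was covered at 53.3 and 32.6% in wild-type males and at 77.3 and 87.1% in females, and had no peak in either knockout library, 0%. These 3 groups did not overlap, with females highest and the knockout at 0, and the share of all genes with such separation was not counted.

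The Six4 peaks were also weak. The highest −log10 q that the authors give for a peak there was 1.48 to 2.61 over the 5 libraries with one. With peaks of −log10 q of at least 3 alone, Six4 had no covered base in any library. Its window was covered at 10.04 and 9.45% in wild-type males, 5.60 and 0% in the knockout and 9.53 and 12.002% in females, and all of that lay in the body or on its high-coordinate side, with 0% on the other side in all 6. The peaks of the first knockout library lay beyond the gene end.

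danr and dan sit 44.5 kb apart on 3R and were covered by a row of short peaks. danr spans 25138072 to 25139903, 1.83 kb, and dan 25184383 to 25192806, 8.42 kb. dan lies inside the span of lobo (25169565 to 25193776), a gene needed for sperm function, and the gene table used here gives no strand. The 2 windows share no base.

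The body of danr was covered at 97.1 and 100% in wild-type males, 78.1 and 18.2% in the knockout and 70.6 and 72.3% in females. Its window was covered at 31.0 and 32.0% in wild-type males, 13.1 and 17.4% in the knockout and 17.3 and 26.7% in females. Wild-type males were highest by both measures, without overlap, while knockout males and females overlapped. Its widest peak was 4.26 and 4.80 kb in wild-type males and 1.76 to 3.62 kb in the other 4 libraries.

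The body of dan was covered at 85.7 and 74.3% in wild-type males, 44.5 and 27.7% in the knockout and 78.4 and 64.1% in females. Its window was covered at 39.2 and 31.2% in wild-type males, 14.2 and 8.47% in the knockout and 43.2 and 41.6% in females. Here the knockout stood apart from both wild-type sexes by either measure. Its widest peak was 2.98 and 2.14 kb in knockout males against 5.55 to 6.96 kb elsewhere.

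From the start of danr to the end of dan, 54.7 kb, peaks covered 56.3 and 52.8% in wild-type males, 21.4 and 17.5% in the knockout and 43.0 and 52.1% in females. Most bases between the genes belong to the flanks of the 2 windows, so their values repeat part of those above. Between the genes 49.0 and 46.8% was covered in wild-type males, 14.6 and 15.5% in the knockout and 35.2 and 49.0% in females. The lower cover of the knockout was therefore spread along the stretch, and its number of peaks there was close to that of the others, 11 and 10 against 11 to 15. Only 2.14 kb of the 31.2 kb ever covered in the dan window, 6.86%, was covered in all 6 libraries, and 1.54 kb of 16.2 kb, 9.54%, in the danr window.

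**Figure D2:**
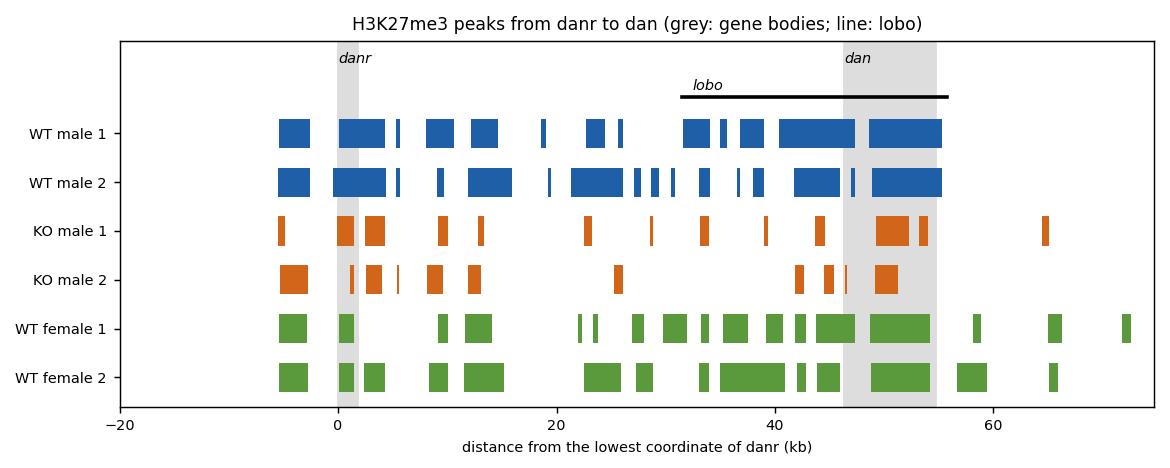
Peaks of each library (bars) from 20 kb before danr to 20 kb past dan, by distance in kb from the lowest coordinate of danr, with both gene bodies in grey and the span of lobo as a line. The 2 knockout libraries (orange) cover 21.4 and 17.5% of the stretch from danr to dan, below the 43.0 to 56.3% of the 4 wild-type libraries.

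Knockout males were compared with wild-type males to ask whether the loss of roX RNAs goes with a change at these autosomal genes. The windows of dan and danr were less covered in the knockout, and no difference in covered percent was called at so, Optix, Six4 or eya. The dan window fell by 23.9 points of cover, from 35.2% ± 5.64 (SD, n = 2) to 11.3% ± 4.04, and the danr window fell by 16.3 points, from 31.5% ± 0.742 to 15.2% ± 3.03. These are the 2 of 6 genes that passed the test, a limma fit over 4202 genes with Benjamini-Hochberg adjustment, called at an adjusted p under 0.05. Over all genes fitted, 17.2% were called lower and 0.286% higher, so a loss of cover was common in this comparison. That was 721 genes lower and 12 higher, against 393 lower and 85 higher with all lists shortened to the same covered length.

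For dan the difference had an SE of 3.46, a 95% interval of -32.4 to -15.3 and an adjusted p of 0.0101 by limma. For danr the SE was 3.57, the interval -25.1 to -7.41 and the adjusted p 0.0327. The gap between the groups was 17.0 points at dan and 13.6 points at danr, above the largest difference between replicates there, 7.98 and 4.28 points. The so window, which was not called, also had such a gap, 1.27 against 0.575 points, and Optix, Six4 and eya did not. The share of all genes with such a gap was not counted. Of all genes fitted, 5.52% had a lower difference than dan and 10.02% a lower one than danr.

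The other 4 genes had differences of -1.60 (so), -7.97 (Optix), -6.94 (Six4) and -1.33 points (eya), with limma adjusted p of 0.623, 0.257, 0.131 and 0.794. The interval was -6.07 to 2.88 for so, -18.1 to 2.15 for Optix, -13.3 to -0.588 for Six4 and -7.61 to 4.94 for eya. All intervals in this text are for single genes and are not adjusted for the number of genes fitted. An interval can thus leave out 0, as at Six4, where the adjusted p gives no call. The Six4 window had a mean of 9.74% in wild-type males and 2.80% in the knockout, so its difference could not exceed its low starting value. All 6 differences were below 0, as were 71.9% of the genes fitted. Without the first knockout library Optix differed by -13.7 points with an adjusted p of 0.0474. The median of the 6 was -7.46 points, beside -3.08 for all genes fitted, -3.01 for those on the large autosomes and -5.78 for those on X.

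The dan and danr calls did not hold without some single libraries, although the differences kept their sign and most of their size. Without the first wild-type male library dan differed by -19.9 points with an adjusted p of 0.0676, and without the second knockout library by -21.0 points with 0.0720. danr differed by -16.8 and -15.7 points with 0.161 and 0.166 without either wild-type male library, and by -14.1 and -18.4 points with 0.128 and 0.109 without either knockout library. In these limma fits the group left with 1 library is assumed to vary like the others. Over all genes, 155 and 166 were called without either wild-type male library and 221 without the second knockout library, against 733. With all lists shortened to the same covered length, dan differed by -16.7 points with an adjusted p of 0.126 and danr by -8.11 points with 0.304. The shorter knockout lists move with the result, and their part in it was otherwise not tested.

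A second rule called a gene marked where peaks covered 50% or more of its body. It was lost if both reference libraries but neither library of the other group had it marked. dan was lost in knockout males. Of all genes, 615 were marked in the wild-type male pair, and 26.3% of these were lost. The pair left 13085 unmarked, and 0.0764% of these were gained. No other member was lost and none was gained: so, Optix and eya stayed marked in all 6 libraries, danr was marked in the first knockout library, and Six4 was marked in just 1 of the 2 wild-type male libraries. Without the second wild-type male library Six4 counted as lost too, and without the first knockout library danr did. With marks set at 20% of the body Six4 was lost and dan was not, and with marks at 80% danr was lost and dan was not. In all, wild-type males had 6 and 5 of the 6 genes marked, against 4 and 3 in the knockout and 6 in both female libraries. The share of all 13922 genes that was marked had the same order, at 5.27 and 5.16%, 4.05 and 3.10%, and 6.72 and 8.51%. No base of any of the 6 windows was covered in both knockout libraries and in neither wild-type male library.

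**Figure D3:**
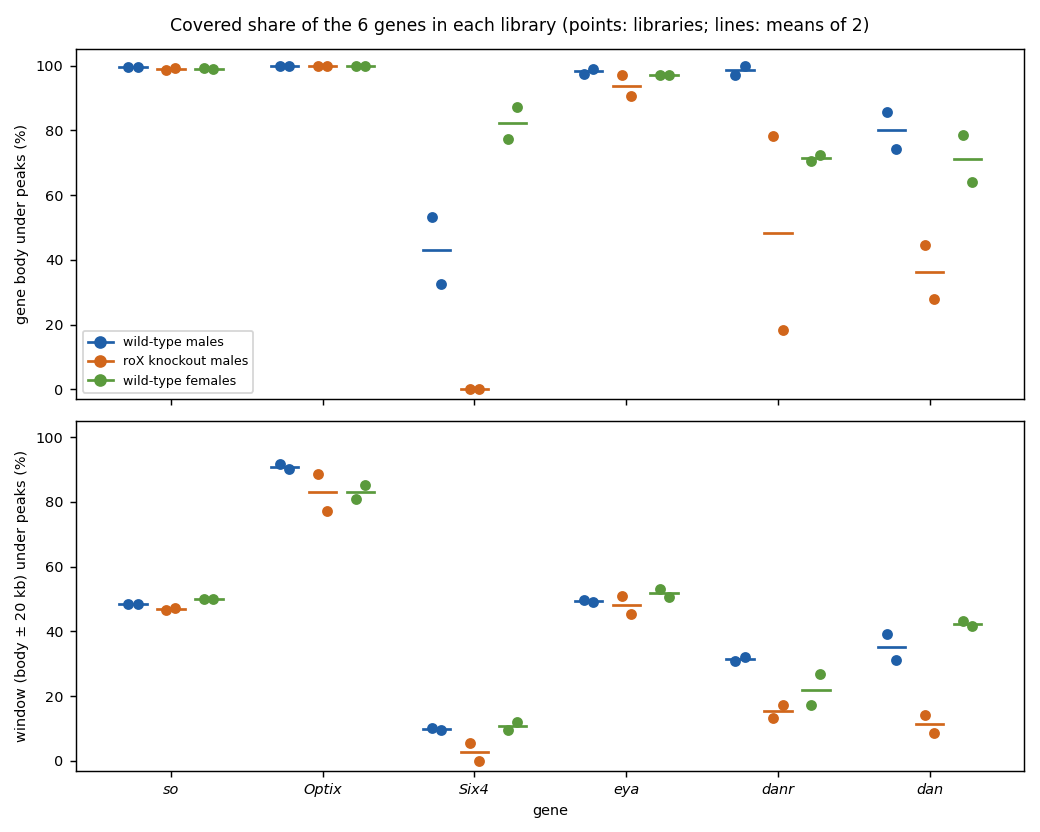
Covered percent of the gene body (top) and of the window (bottom) for the 6 genes, with a point for each library and a line for the mean of the 2 libraries of a group. Knockout males (orange) lie below both wild-type groups at dan and Six4 and below wild-type males at danr, and the 3 groups nearly coincide at so.

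Females were compared with wild-type males, which differ in sex chromosomes as well as in the MSL complex. No member passed the test in either direction, and the signs were mixed. Of the genes fitted, 9.8% were called lower and 26.7% higher in females, or 412 and 1123 genes. This balance depended on the peaks used: it was 279 lower and 264 higher with lists of equal length, and 531 lower and 30 higher with peaks of −log10 q of at least 3 alone. Without either wild-type male library 32 genes were called in all. dan was 7.20 points higher in females, at 42.4% ± 1.15 against 35.2% ± 5.64 (limma adjusted p = 0.150), with a 95% interval of -1.38 to 15.8, whereas over the body alone the difference was -8.71 points. danr was 9.53 points lower, at 22.0% ± 6.65 against 31.5% ± 0.742 (adjusted p = 0.0847), with an interval of -18.4 to -0.679.

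Optix was 7.84 points lower in females, with an interval of -18.0 to 2.28 and an adjusted p of 0.177 by limma. so, Six4 and eya were 1.36, 1.03 and 2.45 points higher, with adjusted p of 0.573, 0.766 and 0.469 in that fit. The median of the 6 was 1.19 points against 3.93 for all genes fitted. The body of Six4 was more covered in females than in wild-type males, 82.2% ± 6.98 against 42.9% ± 14.6, a gap of 24.0 points between the groups. An exact permutation test of 2 libraries against 2 gives no two-sided p below 0.333, which is the value for this body difference.

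By the marked rule no member was lost or gained between females and wild-type males. Of all genes, 10.4% of the 615 eligible were lost in females and 1.09% of the 13085 eligible were gained. Without the first wild-type male library Six4 counted as gained in females. Without the second female library danr was called lower in females, with a difference of -14.2 points and a limma adjusted p of 0.0397, and without the first the difference was -4.83 points with 0.202.

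Females do not assemble the MSL complex, and in males its binding to the X depends on the roX RNAs. Of the 6 windows, that of dan differed most between females and knockout males. It was 31.1 points higher in females (SE 3.46, 95% interval 22.5 to 39.6, limma adjusted p = 0.00327), and 97.3% of the genes fitted had a smaller difference. Six4 was 7.97 points higher, from 2.80% ± 3.96 to 10.8% ± 1.75 (interval 1.61 to 14.3, adjusted p = 0.0498), which passed the threshold narrowly. Over the gene body the difference was larger at Six4, 82.2 points, than at dan, 35.1 points. These 2 of 6 genes were called higher and none lower, beside 42.5% of all genes called higher and 2.67% lower. That was 1785 genes higher and 112 lower, against 327 higher and 110 lower with lists of equal length and 161 higher and 74 lower at −log10 q of at least 3. With equal lengths dan differed by 24.1 points with an adjusted p of 0.0633, and Six4 was not fitted. The call for Six4 was lost in 9 of the 13 other fits in which it was included, with an adjusted p of up to 0.291, and without the second knockout library the difference was 5.17 points with 0.180.

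danr was 6.74 points higher in females than in knockout males (interval -2.12 to 15.6, limma adjusted p = 0.166), and the groups overlapped. Without the first female library the danr difference was 11.4 points with an adjusted p of 0.0377, and with a flank of 50 kb 12.9 points with 0.00359. so, Optix and eya differed by 2.96, 0.128 and 3.79 points, with adjusted p of 0.216, 0.983 and 0.253. The median of the 6 was 5.26 points, beside 7.96 for all genes fitted. By the marked rule dan and Six4 were gained in females and no member was lost, beside 1.75% of 13283 eligible genes gained and 4.2% of 357 lost. The 3 comparisons share their libraries in pairs, so they are not independent of each other.

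**Figure D4:**
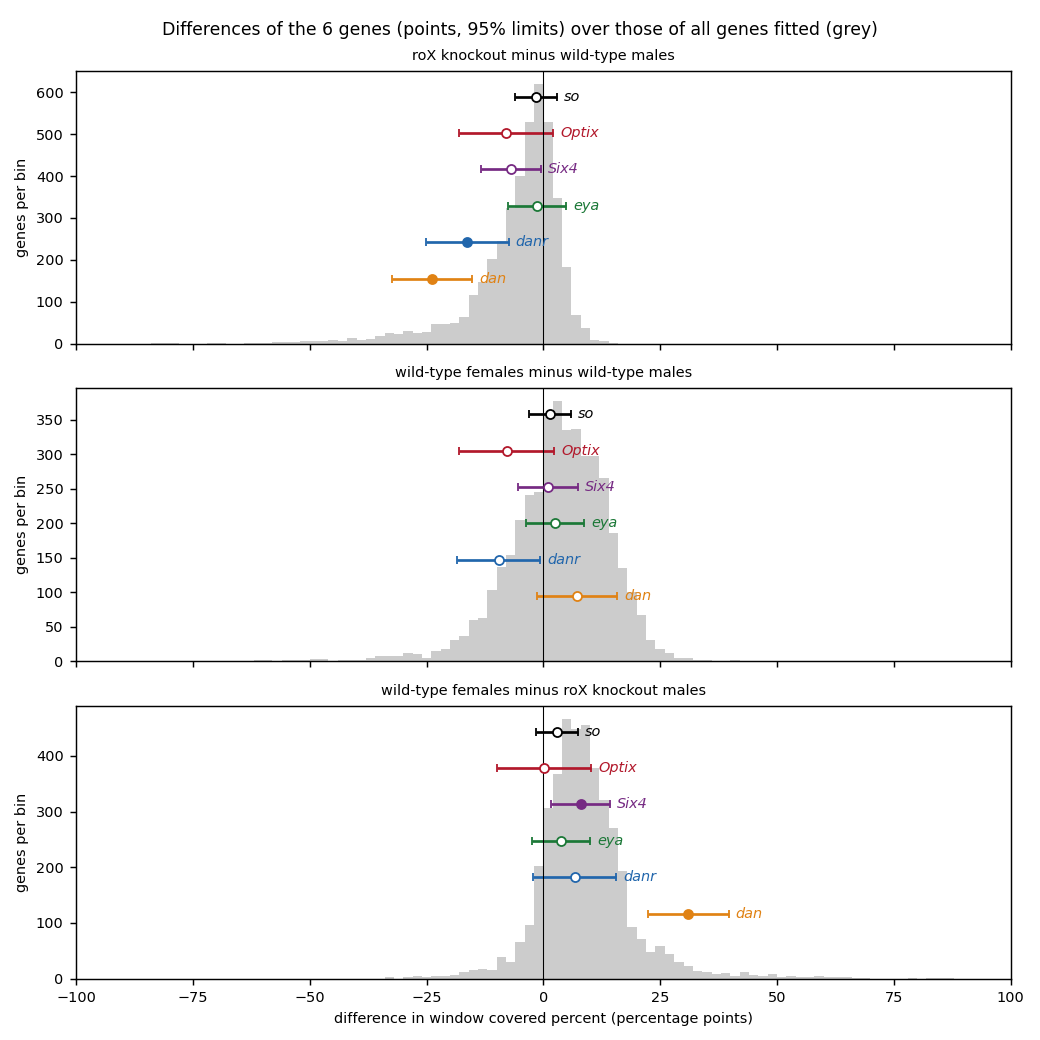
Difference in window covered percent for the 6 genes (points, with 95% intervals) over the distribution for the 4202 genes fitted (grey, bins of 2 points), in each comparison, with filled points for a limma adjusted p under 0.05. The intervals are not adjusted for the number of genes fitted. In knockout against wild-type males dan and danr lie in the lower tail of a distribution that is itself shifted below 0, and in females against knockout males dan lies in the upper tail.

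Weak peaks made up part of the window cover at dan and danr in wild-type males and nearly all of it in the other groups. With peaks of −log10 q of at least 3 alone, the body of danr was covered at 97.1 and 100% in wild-type males and at 0% in the other 4 libraries. The body of dan was then covered at 73.2 and 69.9% in wild-type males and at 0% in the other 4, females included. In wild-type males the dan window was then covered at 13.9 and 22.0%, against 39.2 and 31.2% with all peaks. The danr window was then covered at 10.9 and 19.2% in wild-type males, against 31.0 and 32.0%. In that setting both genes were called lower in females than in wild-type males, with -16.8 points and a limma adjusted p of 0.0230 at dan and -15.1 points and 0.0294 at danr. Of the 1480 genes fitted then, 35.9% were called lower in females. The sign for dan was thus opposite to that with all peaks. Females and knockout males then differed by 1.09 points at dan, with an adjusted p of 0.981. At so, knockout males were then called lower than wild-type males, with a difference of -2.13 points and 0.0485, as were dan and danr, and 42.2% of the 1480 genes were called lower in that comparison. Peaks under this limit made up 77.2 and 79.7% of the wild-type male lists, 85.0 and 87.0% of the knockout lists and 90.8 and 91.1% of the female lists, and the part of depth in this was not tested.

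The blocks at so, eya and Optix all reached beyond the gene, and neighbours were covered by the block or by separate peaks. CG11145, which lies within so, was covered at 100% in all 6 libraries. CG1701 beside so was covered at 50.7 and 47.7% in wild-type males, 0 and 22.1% in the knockout and 35.9 and 35.3% in females, and 3 of the 13 genes that touch the so window had no covered base in any. IFT52, a cilium gene past the end of eya, was covered at 69.1 and 68.0% in wild-type males, 66.7 and 33.3% in the knockout and 54.3 and 69.1% in females, while 5 of the 7 neighbours of eya were uncovered throughout. CG14762 on one side of Optix was covered at 100% in 5 libraries and 66.9% in the second knockout library, by peaks apart from the block. CG12769 on the other side was covered at 60.7 and 67.2% in wild-type males, 47.5 and 28.6% in the knockout and 46.8 and 67.2% in females. The Optix block itself reached CG12769 in wild-type males and the first knockout library only.

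Peaks were confined to part of the window at Six4 and danr. Of the 13 neighbours of Six4, 12 had no covered base in any library, and of the 7 of danr, 6 had none. The exception at Six4 was CG3698, covered at 47.8 and 69.3% in wild-type males, 69.1 and 0% in the knockout and 0 and 53.5% in females. At danr it was Bili, covered at 52.1 and 52.9% in wild-type males, 10.9 and 48.0% in the knockout and 47.4 and 48.7% in females. lobo, which spans dan, was covered at 78.4 and 55.1% in wild-type males, 24.4 and 16.9% in the knockout and 63.0 and 62.4% in females. The knockout libraries were lowest, but lobo lies inside the dan window, so these are peaks already described there.

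Among other genes of the retinal determination network, the loss in knockout males was uneven too. Of 13 such genes, 12 could be fitted, 5 were called lower by limma and none higher, with a median of -11.5 points, beside 17.2% called lower and a median of -3.08 for all genes fitted. The 5 were dac, hth, tsh, oc and hbn. The fitted network genes had windows covered at 10.3 to 100% in wild-type males, while a mean of 5% was enough for the fit. The list and all genes fitted were thus not matched on starting cover. Of the Polycomb targets used as a check, Abd-B was called lower in knockout males too, at -8.68 points with a limma adjusted p of 0.0369. Ubx and abd-A were not called. The window of hth, a homeobox gene that opposes eye fate, went from 93.8% ± 0.266 to 43.9% ± 7.51 (SD, n = 2), and that of tsh, a zinc finger gene that can induce eyes, from 97.8% ± 0.384 to 57.9% ± 11.6. The adjusted p was 0.00134 for hth and 0.00793 for tsh. dac, which acts with so and eya, fell by 15.2 points with an adjusted p of 0.0294, and hbn by 16.4 points with 0.0310. oc, an X-linked homeobox gene of the ocelli, fell by 36.6 points with 0.00779. hth was lost by the marked rule, beside 26.3% of the 615 eligible genes.

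In females 6 of the 12 were called lower than in wild-type males and none higher, with a median of -9.62 points, beside 9.8% lower, 26.7% higher and a median of 3.93 for all genes fitted. These were ey, toy, dac, hth, tsh and tio. The list was again not matched with all genes fitted on starting cover, and a window near 100% has little room to rise. The Polycomb targets abd-A and Abd-B were also called lower in females, at -9.40 and -15.1 points with limma adjusted p of 0.0221 and 0.00745. Ubx was not called. The Pax6 genes ey and toy, which stand above so and eya in the network and lie on chromosome 4, fell by 12.1 and 37.6 points, with limma adjusted p of 0.0151 and 0.00262. tio, a relative of tsh, fell by 36.0 points with 0.00719. Against knockout males, females were lower at 3 of the 12 (ey, toy and tio) and higher at 2 (hth and oc). For all genes fitted, not matched on starting cover here either, 2.67% were lower and 42.5% higher in that comparison. Abd-B was called lower there too, at -6.42 points with a limma adjusted p of 0.0458, and Ubx and abd-A were not. By the marked rule toy was lost in females against both male groups, beside 10.4 and 4.2% of eligible genes. hth was gained in females against knockout males, beside 1.75% of eligible genes.

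Of 16 genes for later eye and antenna fate, 14 could be fitted. In knockout males 9 were called lower by limma and none higher, with a median of -13.7 points. For all genes fitted, again not matched on starting cover, the values were 17.2% lower and -3.08. On X the genes called lower were lz, B-H1, B-H2 and ct. On the autosomes they were ato, gl, pros and dpp, and sv on chromosome 4. ato, the proneural gene of photoreceptors, fell by 32.6 points with an adjusted p of 0.0109, and dpp, a ligand of the BMP family, by 30.1 points with 0.00321. gl, a zinc finger gene of photoreceptors, fell by 9.47 points with 0.0460, pros, a homeobox gene of neurons and cone cells, by 13.0 points with 0.0124, and sv, a Pax2 gene, by 14.5 points with 0.0231. lz, B-H1, B-H2, pros and dpp were lost by the marked rule, again beside 26.3% of the 615 eligible genes.

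Between females and wild-type males 1 of these 14 was lower, sv, and 2 were higher, B-H2 and ct, with a median of -2.82 points. For all genes fitted, not matched on starting cover here either, 9.8% were lower and 26.7% higher, with a median of 3.93. Females exceeded knockout males at 7 (ato, lz, B-H1, B-H2, pros, ct and dpp) and were lower at sv, with a median of 8.45 points. That was close to all genes fitted, with 42.5% higher, 2.67% lower and a median of 7.96. exd, da and ro were under the limit for the fit.

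**Figure D5:**
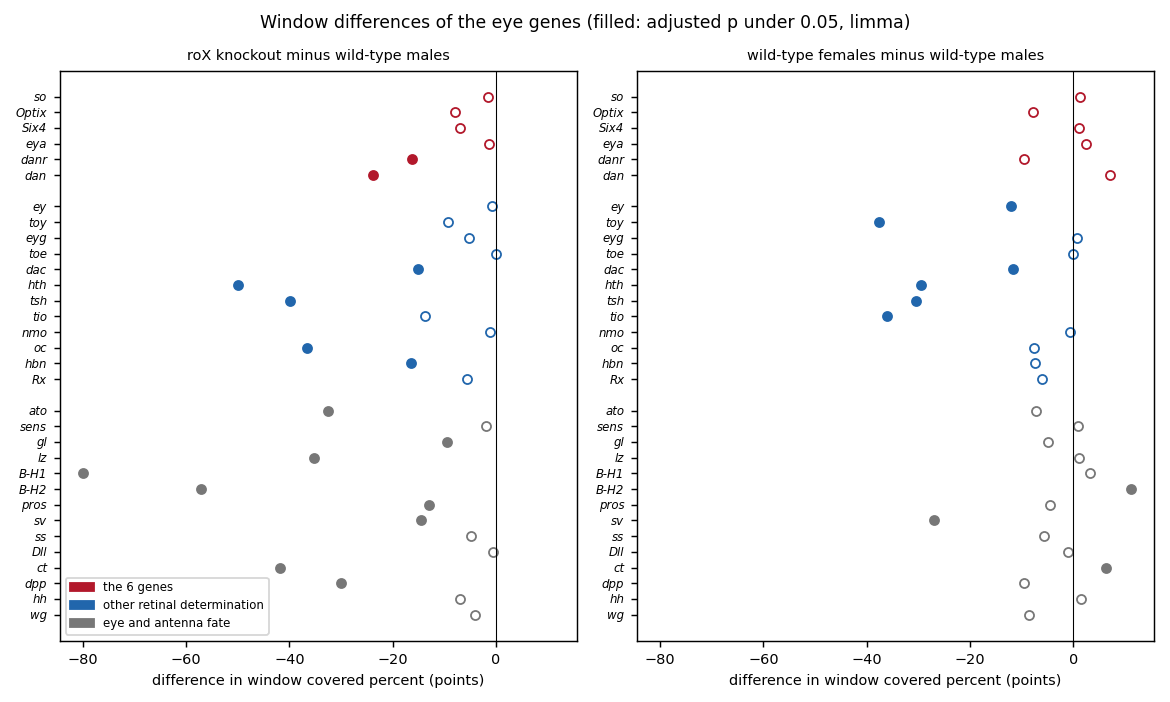
Difference in window covered percent in knockout males (left) and in females (right) against wild-type males for the 6 genes (red), other retinal determination genes (blue) and eye and antenna fate genes (grey), filled where the limma adjusted p was under 0.05. so and eya lie close to 0 on both sides, while dan and danr are lower in the knockout, as are 5 of the 12 network genes and 9 of the 14 fate genes.

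Genes with the most similar window cover over the 6 libraries were sought by Euclidean distance in points. Protein-coding genes whose window overlapped that of the member were left out. For dan these were Ir94d, CG17380 and CG45087, at distances of 7.11, 7.12 and 8.25, and for danr CG15544, EMC2A and CG3085, at 7.39, 8.52 and 8.57. Optix was most like CG43814, svp and CG13323, at 7.59, 7.83 and 9.27, and had 4 genes within 10 points. so had 41 genes within 10 points, with Orc4, Syx7 and Der-1 closest at 3.06, 3.96 and 4.10. eya had 30, with CG1701, agt and CG5087 at 5.20, 5.48 and 5.49. Six4 had 659, led by RanGAP, cype and CG13492 at 3.30, 3.37 and 3.55.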

How the data were processed

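H3K27me3 broad peak lists were analysed for 6 libraries, 2 in each of 3 groups taken from the sample titles; the 3 inputs were left aside. As build, the submitters' processing notes name dm6 and, as tools, deepTools 3.5.1, Picard, SAMtools 1.13, Bowtie2 2.4.5 and Trimmomatic 0.39. Which peak caller was run, how it was set and whether inputs entered it is not given in the sources used here. A list belongs to 1 sample, with no pooling of replicates. For every peak the authors deposited −log10 q, −log10 p, a fold, which is a ratio over background, and a display score. These were used to describe or filter peaks within a list. The lists hold no counts, so depth is unknown and limits how many weak peaks each list holds.

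Peaks were merged and intersected with the Release 6 gene table. Windows were fitted with limma 3.58.1 in R 4.3.3 (lmFit, contrasts.fit, eBayes), with all 6 libraries in 1 fit, for genes whose mean was at least 5%. Neighbouring windows overlap, so genes are not independent. The computation was tested on simulated data. A two-sided exact permutation test over libraries was used for single values. Replicate numbers did not pair samples. The members, the 2 lists of related genes and the tests were chosen with earlier results of these data known. All members were named, listed genes where they passed the test or were lost or gained, and for each member the 3 genes of most similar window cover. Alternatives were stricter peaks, joined gaps, equal list lengths, other flanks, filters, scales and marks, fewer libraries and a replicate block.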

Additional observations from a re-analysis of the deposited data

How the results depend on the processing

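dan was lower in knockout than in wild-type males under all 15 distinct alternative fits and called in 10 (adjusted p 0.00154 to 0.167), and danr lower in all 15 and called in 6 (0.00182 to 0.605). In that comparison 2 of the 6 genes were called lower. The number was 3 (with so) at −log10 q of at least 3, 1 (dan) with gaps of up to 1 kb joined or a 5 kb flank, and 0 with equal list lengths, the gene body alone or no filter. It was 0 to 2 with each replicate left out. The 733 genes called in all were 478 with equal lengths, 78 for the body, 185 and 1494 with flanks of 5 and 50 kb, 393 without the filter, and 155 to 690 with a replicate left out. For females against wild-type males, no member was called, against 2 lower (dan and danr) at −log10 q of at least 3 and 0 to 1 lower with a replicate left out. The 1535 genes were 561 at that limit, 543 with equal lengths, 407 for the body, 834 with a 5 kb flank, 3457 without the filter and 32 to 1533 with a replicate left out. For females against knockout males, the 2 members called higher were 0 at −log10 q of at least 3 and with equal lengths. They were 1 with gaps joined, the body (Six4), only the 4 libraries compared, or the arcsine square root scale, and 1 to 2 with a replicate left out. They were 3 (dan, danr and eya, the last with an adjusted p of 0.0455) with a 50 kb flank, and dan and so (0.0336) without the filter. The 1897 genes were 235 at −log10 q of at least 3, 437 with equal lengths, 446 for the body, 920 and 3048 with flanks of 5 and 50 kb, 3659 without the filter, 1210 with only the 4 libraries compared and 708 to 1896 with a replicate left out.

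Replicate numbers did not pair the samples: replicate differences correlated at -0.0424, -0.0167 and 0.0421 between groups over 4202 genes. With the number as a replicate block, 616, 1254 and 1649 genes were called in the 3 comparisons against 733, 1535 and 1897, dan and danr were called in knockout males as before, and Six4 was not called in females against knockout males, leaving 1 member.

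By the marked rule, members lost in knockout males were 1, against 2 at −log10 q of at least 3, 0 with gaps joined and 1 to 2 with a replicate left out. The 1 lost was Six4 with marks at 20% and danr with marks at 80%. The 172 genes lost or gained were 104 with equal lengths and 261 to 298 with a replicate left out. For females against wild-type males, 2 members (dan and danr) were lost at −log10 q of at least 3 and 1 (danr) with marks at 80%, and Six4, 1 member, was gained with equal lengths and in 0 to 1 cases with a replicate left out. The 206 genes were 122 at −log10 q of at least 3, 113 with equal lengths, 493 and 137 with marks at 20 and 80%, and 280 to 680 with a replicate left out. For females against knockout males, the 2 members gained were 0 at −log10 q of at least 3 and with marks at 80%, 1 (Six4) with gaps joined or marks at 20%, and 2 to 3 with a replicate left out. The 247 genes were 52, 138, 530 and 119 at −log10 q of at least 3, equal lengths and marks at 20 and 80%, and 344 to 726 with a replicate left out.

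Signs reversed as follows. In knockout males eya differed by 1.39 points without the second knockout library, and by -4.05 to 1.39 over the libraries left out. In females against wild-type males, so, eya and dan differed by -1.39, -0.539 and -16.8 points at −log10 q of at least 3, so and eya by -0.350 and -0.226 with equal lengths, so, eya and dan by -0.538, -1.02 and -8.71 for the body, so and dan by -0.840 and -4.79 with a 5 kb flank, dan by -0.873 with a 50 kb flank, and Six4 by -0.210 to 2.26 with a replicate left out. In females against knockout males, Optix and danr differed by -4.91 and -0.278 at −log10 q of at least 3, Optix by -1.49 with gaps joined, by -0.615 with equal lengths, by -0.00292 on the arcsine square root scale and by -5.62 to 5.88 with a replicate left out, and so by -0.317 with a 5 kb flank. Only the dan value at −log10 q of at least 3 was called among these (limma adjusted p = 0.0230). The causes were not tested. Depth is unknown, so weak peaks at Six4, dan and danr may have been missed in some libraries.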
